A study of Homo sapiens with 24 samples.

Results

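The 43 genes described here encode proteins that license replication origins, start and carry the replication fork, supply deoxynucleotides or drive the G1/S step of the cell cycle. They were taken by symbol from a table of 25341 named genes, and all 43 passed the filter on low values, under which 15113 genes were tested. The study lowered IRF4, a transcription factor of plasma cells, with a pool of siRNAs delivered by electroporation, and sequenced total RNA of 4 multiple myeloma cell lines. In each line 3 libraries are labelled siIRF4 at 48 h and 3 are labelled CTRL, with DMSO at 0 h, so 24 libraries form 8 groups: siIRF4 and CTRL of MM1R, of MM1S, of KMS-12-BM and of KMS-12-PE. MM1R and MM1S are sister lines, derived from the same patient, and so are KMS-12-BM and KMS-12-PE. The labels name no non-targeting siRNA, and the CTRL cells carry no label of electroporation. The loss of IRF4, the electroporation and the 48 h in culture therefore cannot be told apart in any comparison of siIRF4 with CTRL. Nothing in the labels says whether the 3 libraries of a group came from separate cultures, so the p-values measure the spread between these libraries, which may be technical.

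DNA is copied once in each cell cycle. In G1 the origin recognition complex, CDC6 and CDT1 load the MCM helicase onto origins, and at the start of S phase CDC45 and the GINS complex join it to form the active helicase, behind which the polymerases, the sliding clamp PCNA and its loaders copy both strands. Many of these genes are transcribed together late in G1, when cyclin E and CDK2 relieve the block that RB proteins place on E2F factors, which is why replication genes are commonly read as a sign of proliferation in tumour cells, myeloma included.

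Promoters of 8 of the genes are shown because they hold an E2F motif, which was found for 22 of the 38 genes searched. RefSeq promoter sequences (GRCh38.p14, 250 bases before to 50 bases after the annotated start) were matched by symbol for 38 of the 43 genes, all except MCM4, MCM5, GINS4, DSCC1 and CCNE2. Some genes have several annotated starts, and a gene counts as holding a motif where any of its promoters does. Each line below gives the 130 bases before the start, 5′ to 3′ on the strand of the gene, with matches to an E2F motif on either strand in capitals.
E2F1, chr20:33686386-33686515, minus strand: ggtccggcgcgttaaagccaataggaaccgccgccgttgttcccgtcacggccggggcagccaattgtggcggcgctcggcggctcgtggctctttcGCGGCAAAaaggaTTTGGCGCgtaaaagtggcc
E2F2, chr1:23531234-23531363, minus strand: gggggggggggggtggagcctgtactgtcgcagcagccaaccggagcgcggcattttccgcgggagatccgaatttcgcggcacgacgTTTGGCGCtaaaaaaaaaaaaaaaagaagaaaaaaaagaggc
MCM6, chr2:135876444-135876573, minus strand: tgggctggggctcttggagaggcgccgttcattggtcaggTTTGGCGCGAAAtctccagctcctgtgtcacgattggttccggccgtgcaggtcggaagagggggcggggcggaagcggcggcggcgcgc
CDT1, chr16:88803659-88803788, plus strand: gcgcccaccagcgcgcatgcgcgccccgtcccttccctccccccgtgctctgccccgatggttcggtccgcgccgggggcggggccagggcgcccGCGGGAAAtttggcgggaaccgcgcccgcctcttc
POLA2, chr11:65261832-65261961, plus strand: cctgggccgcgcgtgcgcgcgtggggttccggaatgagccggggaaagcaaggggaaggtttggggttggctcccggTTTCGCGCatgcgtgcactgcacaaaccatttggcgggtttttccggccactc
PCNA, chr20:5126623-5126752, minus strand: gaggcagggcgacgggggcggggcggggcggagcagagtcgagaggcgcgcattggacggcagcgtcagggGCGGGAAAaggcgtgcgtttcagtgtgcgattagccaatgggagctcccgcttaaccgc
TYMS, chr18:657523-657652, plus strand: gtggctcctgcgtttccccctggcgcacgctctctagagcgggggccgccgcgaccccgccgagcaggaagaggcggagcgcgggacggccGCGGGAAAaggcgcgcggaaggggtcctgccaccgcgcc
LIG1, chr19:48170345-48170474, minus strand: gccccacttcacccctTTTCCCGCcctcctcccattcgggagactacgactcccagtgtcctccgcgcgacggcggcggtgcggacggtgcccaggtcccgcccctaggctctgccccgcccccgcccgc

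The E2F motif was searched as TTTCCCGC, TTTCGCGC, TTTGCCGC or TTTGGCGC on both strands, and in MCM6 the capitals join overlapping matches on opposite strands. It was present in any promoter of 22 of the 38 genes, or 57.9%, against 6.45% of the 10287 tested genes with a promoter in the table and 3.99% of all 27305 genes in it. The CCAAT box, which the factor NF-Y binds, was present for 57.9% of the 38 genes and for 43.1% of the tested genes. TTTGAA, the core of the cell cycle homology region of many mitotic genes, was present in 1 of the 38, or 2.63%, against 13.8%. The interferon-stimulated response element was searched as GAAA, any 2 bases and GAAA, and was present in 0 of the 38, against 4.17%. The Ets-IRF composite element was searched as GGAA, any 2 bases and GAAA, and was present in 1 of the 38, or 2.63%, against 3.53%. These are matches of letters in a short window and not sites of binding.

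IRF4 transcripts were lower in siIRF4 than in CTRL cells of each line, though by unequal amounts. In TPM, a level per length of transcript that is scaled to the same total in every library, IRF4 averaged 291.0 ± 27.8 in siIRF4 and 380.3 ± 17.3 in CTRL cells of MM1R (SD, n = 3 each), a loss of 23.5%. MM1S lost 50.4%, KMS-12-BM lost 38.4% and KMS-12-PE lost 52.6% of their mean IRF4 level. IRF4 was called lower in all 4 lines by limma, the test described below, with a largest adjusted p of 5.85e-05. In every line the siIRF4 and CTRL libraries did not overlap for IRF4, and the 2-sided exact permutation test gave p = 0.1, the smallest it allows for 3 against 3. The libraries held 17.3 to 27.4 M recovered reads, and the 43 genes had between 90 reads (POLE2 in 1 library) and 32108 reads (MCM7) per library, so counting error is small for nearly all of them. One library stood apart for these genes: MM1R siIRF4 replicate 1 had a summed level of 3282.3 TPM over the 43 genes, against 3738.8 and 3913.6 TPM in the other siIRF4 libraries of MM1R, and it also had the lowest IRF4 of them, 259.9 TPM against 299.4 and 313.6 TPM. Over all tested genes its deviation from the group mean, 0.17 on the log2 scale, lay within the range of the other libraries. The median change in MM1R and several counts of called genes are given with and without it.

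All 7 plasma cell markers checked, IRF4 itself, TNFRSF17 and XBP1 among them, were at 1 TPM or more in every group, although SDC1, the syndecan used to sort plasma cells, was low in KMS-12-BM, averaging 6.41 TPM in siIRF4 and 6.05 TPM in CTRL cells. In KMS-12-PE POU2AF1 averaged 5.67 TPM in siIRF4 and 25.5 TPM in CTRL cells. In siIRF4 cells 6 of the 7 were called lower and 1, MZB1, higher in MM1R, and 5 of 7 were called lower in each other line. Markers of other cell types were present in all 4 lines, at levels that differed by line. The summed level of 6 stromal markers was 19.7 to 27.3 TPM in siIRF4 and 58.0 to 87.8 TPM in CTRL libraries of KMS-12-PE, and 6 of 6 were called lower there. In MM1S the sum was 63.1 to 84.0 TPM in siIRF4 and 57.5 to 124.4 TPM in CTRL libraries, and in MM1R and KMS-12-BM it stayed at or below 1.56 TPM, with COL3A1 at 0 in both groups of MM1R. The sum of 6 myeloid markers was 36.3 to 51.5 TPM in siIRF4 and 147.2 to 183.2 TPM in CTRL libraries of KMS-12-PE, and it was 92.2 to 98.8 TPM in siIRF4 and 22.2 to 27.2 TPM in CTRL libraries of MM1R, where S100A9 made up nearly all of it and S100A8 was at 0. The 7 T and NK cell markers summed to 49.95 to 55.9 TPM in siIRF4 and 17.9 to 20.5 TPM in CTRL libraries of KMS-12-PE, with CD3D at 0 in siIRF4 cells. Their sum was higher in siIRF4 without overlap in the other lines too, at 15.3 to 18.8 TPM in siIRF4 and 12.5 to 13.6 TPM in CTRL libraries of MM1R, 12.8 to 17.4 TPM in siIRF4 and 7.61 to 8.11 TPM in CTRL libraries of MM1S, and 31.0 to 34.2 TPM in siIRF4 and 22.5 to 24.3 TPM in CTRL libraries of KMS-12-BM. The 5 epithelial markers summed to 213.1 to 225.7 TPM in siIRF4 and 209.7 to 214.7 TPM in CTRL libraries of KMS-12-BM, most of it EPCAM and KRT8, and to 147.0 to 165.9 TPM in siIRF4 and 176.3 to 194.2 TPM in CTRL libraries of KMS-12-PE. The 5 erythroid markers summed to at most 30.5 TPM in any library. The part of these markers in the results below was not tested.

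**Figure D1:**
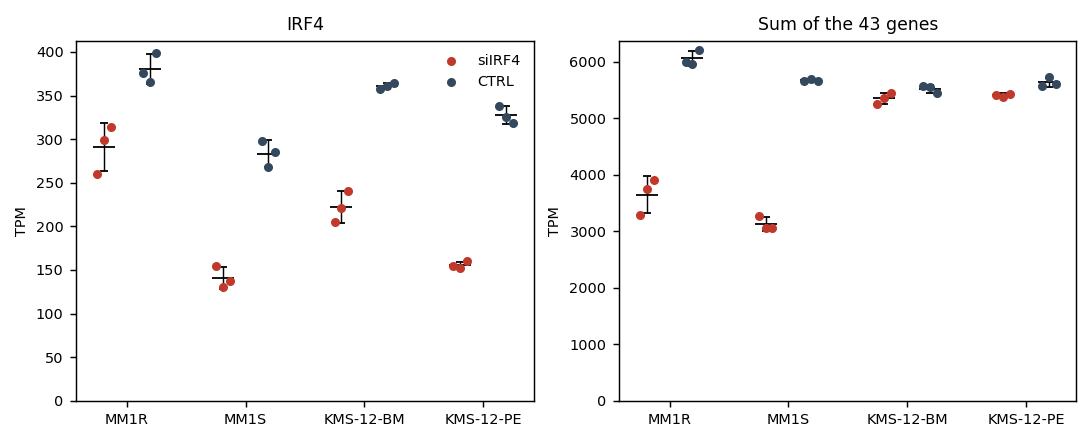
TPM of IRF4 (left) and summed TPM of the 43 DNA replication and G1/S genes (right) in each library of the 4 lines, siIRF4 in red and CTRL in dark blue, with the mean and SD of 3 libraries. IRF4 was lower in siIRF4 than in CTRL cells of all 4 lines, while the summed level averaged 3644.9 TPM in siIRF4 and 6056.9 TPM in CTRL cells of MM1R, with a like gap in MM1S, and differed far less in the KMS-12 lines.

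After siIRF4 the replication genes fell as a whole set in the MM1 lines and stayed near their CTRL levels in the KMS-12 lines. Their summed level was 3644.9 ± 326.0 TPM in siIRF4 and 6056.9 ± 132.4 TPM in CTRL cells of MM1R (SD, n = 3 each), and 3122.5 ± 122.2 TPM in siIRF4 and 5665.6 ± 26.6 TPM in CTRL cells of MM1S. It was 5347.2 ± 95.1 TPM in siIRF4 and 5519.9 ± 73.1 TPM in CTRL cells of KMS-12-BM, and 5407.9 ± 27.8 TPM in siIRF4 and 5632.2 ± 83.2 TPM in CTRL cells of KMS-12-PE. Across the pairs KMS-12-PE lost 52.6% of IRF4 and MM1R 23.5%. Within the pairs the change was more negative in MM1S than in MM1R for 36 of 43 genes, and in KMS-12-PE than in KMS-12-BM for 27 of 43. Over all 15113 tested genes it was more negative in MM1R than in MM1S for 8278, and in KMS-12-BM than in KMS-12-PE for 5839. The 27 of 43 is thus near the share of all tested genes with the more negative change in KMS-12-PE. The part of the unequal loss of IRF4 in these counts was not tested. These are bulk samples, in which fewer cells in S phase and less of these RNAs per cell cannot be told apart.

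Each gene was tested with limma on log2(TPM + 1), in 1 fit of the 8 groups, and a gene is called where its p, adjusted by Benjamini-Hochberg over all tested genes, is under 0.05. Changes are siIRF4 minus CTRL on that log2 scale, which understates the change of low genes. In MM1R 43 of 43 genes were called lower, where 21.2% of all tested genes were, and 0 higher, where 25.0% were. They had a median change of -0.70 (range -1.15 for RRM2 to -0.43 for POLE2) beside 0.03 over all tested genes. In MM1S 43 of 43 were called lower, where 21.1% of all tested genes were, and 0 higher, where 29.1% were, with a median of -0.81 (range -1.21 for RRM2 to -0.53 for POLE) beside 0.04. In both lines 0 genes were higher also at an unadjusted p under 0.05 and with voom, a weighted limma fit on read counts recovered from the TPM. In both MM1 lines every siIRF4 library lay below every CTRL library for 43 of the 43 genes, a pattern seen in 24.4% of tested genes in MM1R and in 22.6% in MM1S. In KMS-12-BM 5 of the 43 were called lower, where 6.09% of tested genes were, and 1 was called higher, where 11.4% were, with a median change of -0.04 beside 0.04. In KMS-12-PE 14 were called lower, where 22.2% of tested genes were, and 1 higher, where 15.9% were, with a median of -0.08 beside -0.02. In KMS-12-BM the share of members called lower was thus 11.6%, and in KMS-12-PE it was 32.6%. In KMS-12-PE the stromal, myeloid and epithelial sums given above were lower in siIRF4 than in CTRL libraries, and the T and NK cell sum was higher. Within the epithelial sum EPCAM averaged 139 TPM in siIRF4 and 129 TPM in CTRL cells there, and KRT5 17.4 TPM in siIRF4 and 55.8 TPM in CTRL cells. The part of these markers in the calls was not tested.

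Without MM1R siIRF4 replicate 1 all 43 genes were still called lower in MM1R and the median change there was -0.63. Since all groups share 1 estimate of the spread, leaving that library out also moved the KMS-12 counts, to 8 called lower in KMS-12-BM and 3 called higher in KMS-12-PE. Of the genes with values given in every library, CDC6, E2F1 and CHAF1A were then called lower in KMS-12-BM and LIG1 higher. In KMS-12-PE FEN1 and CHAF1A were then called lower and TK1 higher, with a largest adjusted p of 0.0375 (limma) over both lines. With voom 11 genes were called lower in KMS-12-BM and 6 higher in KMS-12-PE. Of the 14935 genes tested by voom 1760 were lower in KMS-12-BM and 3056 higher in KMS-12-PE. By limma on log2(TPM + 1) 920 of 15113 were lower in KMS-12-BM, so that background rose with voom too. With median-of-ratios scaling 8 of the 43 were lower in KMS-12-BM and 2 higher in KMS-12-PE. The count lower in KMS-12-BM was 3 without siIRF4 replicate 1, CTRL replicate 1 or CTRL replicate 2 of that line. Over the average of the 4 lines 43 of 43 genes were called lower, where 26.5% of tested genes were, and 0 higher, where 33.1% were, but that average joins lines that differed from each other.

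**Figure D2:**
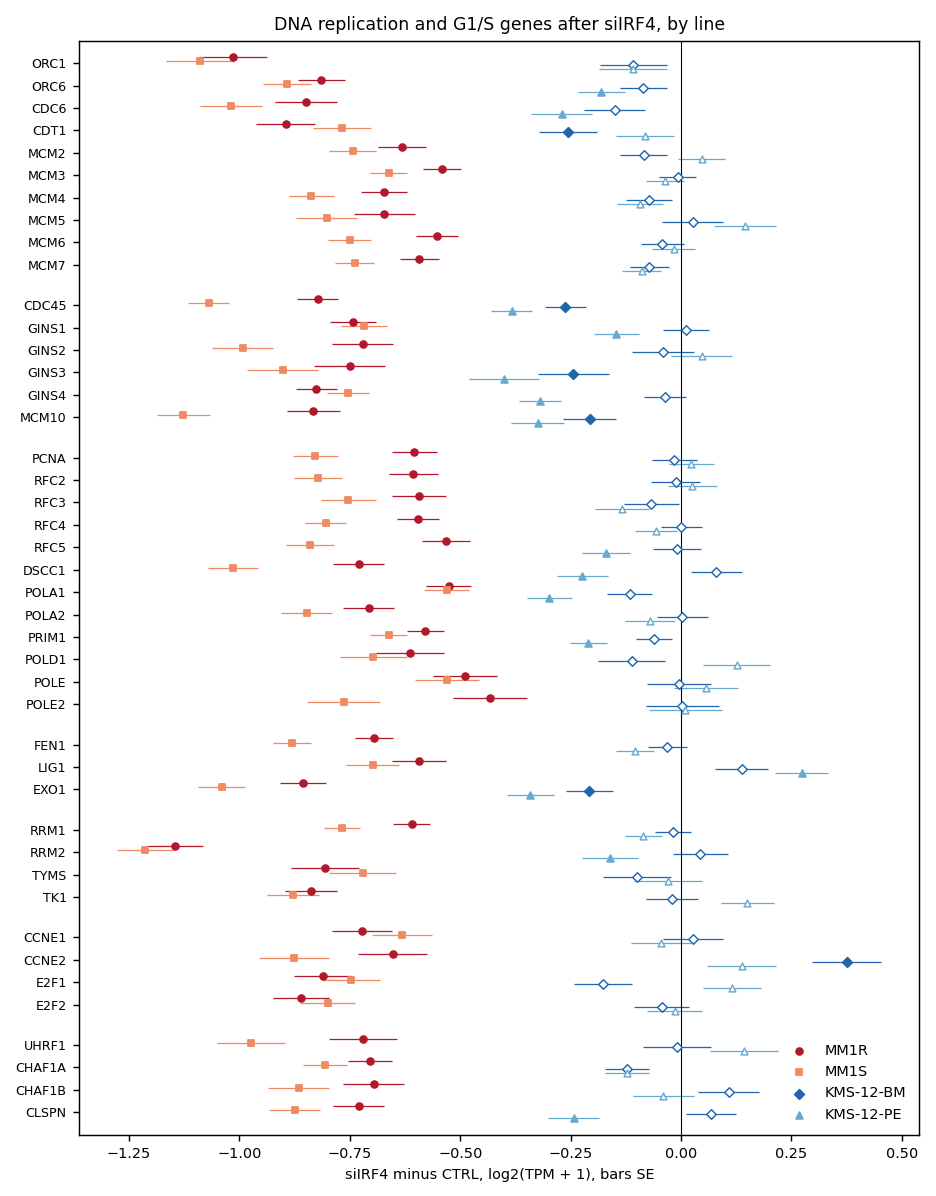
Change of each of the 43 genes after siIRF4, as siIRF4 minus CTRL on the log2(TPM + 1) scale with its SE, by line. Genes are ordered by role, and a filled symbol marks an adjusted p under 0.05. All MM1R and MM1S symbols lie between -1.21 and -0.43, and the KMS-12 symbols lie around 0, between -0.40 and 0.37.

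Origin licensing was represented by 10 genes: ORC1 and ORC6 of the origin recognition complex, the loading factors CDC6 and CDT1, and the 6 subunits of the MCM2-7 helicase. All 10 were lower in MM1R and in MM1S. For KMS-12-BM 1 of 10 (CDT1) was lower, where 6.09% of all tested genes were. For KMS-12-PE 2 of 10 (ORC6 and CDC6) were lower, where 22.2% of all tested genes were. Both counts are thus near these shares, which are also the background for the lower counts of the later roles. ORC1, the subunit that is made and destroyed with the cell cycle, changed most of the 10 genes in both MM1 lines. ORC1 had 24.4, 31.0 and 32.2 TPM in siIRF4 and 58.7, 59.1 and 61.1 TPM in CTRL libraries of MM1R. In MM1S ORC1 had 25.2, 20.8 and 20.4 TPM in siIRF4 and 47.6, 49.3 and 47.1 TPM in CTRL libraries. It was below CTRL in every library and changed by -1.01 (SE 0.08, adjusted p = 1.01e-09) in MM1R and by -1.09 (SE 0.08, adjusted p = 2.52e-10) in MM1S. ORC1 had 26.8, 28.1 and 27.8 TPM in siIRF4 and 30.1, 29.0 and 30.2 TPM in CTRL libraries of KMS-12-BM. In KMS-12-PE ORC1 had 75.2, 72.6 and 76.1 TPM in siIRF4 and 82.9, 81.7 and 77.2 TPM in CTRL libraries. In both KMS-12 lines the siIRF4 libraries again lay below the CTRL libraries, but the values were not called: -0.11 (SE 0.08, adjusted p = 0.381) in KMS-12-BM and -0.11 (SE 0.08, adjusted p = 0.291) in KMS-12-PE. CDC6, which brings the MCM helicase to origins, was the other leading gene of this group. CDC6 had 53.6, 64.7 and 72.9 TPM in siIRF4 and 116, 109 and 120.5 TPM in CTRL libraries of MM1R. In MM1S CDC6 had 49.0, 45.9 and 47.9 TPM in siIRF4 and 102, 95.7 and 94.8 TPM in CTRL libraries. Again no siIRF4 library of these lines reached the CTRL range. CDC6 had 97.3, 104 and 105 TPM in siIRF4 and 113, 115 and 112 TPM in CTRL libraries of KMS-12-BM. In KMS-12-PE CDC6 had 120.5, 120.1 and 124 TPM in siIRF4 and 142, 146 and 154 TPM in CTRL libraries. The groups did not overlap in any line, and the change was -0.85 (SE 0.07, adjusted p = 3.2e-09) in MM1R, -1.02 (SE 0.07, adjusted p = 1.67e-10) in MM1S and -0.27 (SE 0.07, adjusted p = 0.00399) in KMS-12-PE, while the value of -0.15 (SE 0.07, adjusted p = 0.149) in KMS-12-BM was not called. With voom and when KMS-12-BM was fitted alone, CDC6 was called lower in that line.

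CDT1, which loads the helicase together with CDC6, was the licensing gene called in KMS-12-BM, by -0.26 (SE 0.07, adjusted p = 0.00926), with 63.0, 64.8 and 65.0 TPM in siIRF4 and 81.8, 77.0 and 72.3 TPM in CTRL libraries of KMS-12-BM. That call was lost without CTRL replicate 1 of that line (adjusted p = 0.0589). In KMS-12-PE its siIRF4 and CTRL libraries overlapped. The 6 MCM subunits, which form a ring, moved together in the MM1 lines. Their changes ran from -0.67 (MCM4 and MCM5) to -0.54 (MCM3) in MM1R and from -0.84 (MCM4) to -0.66 (MCM3) in MM1S. In the KMS-12 lines no MCM2-7 subunit was called by limma, with values between -0.09 and 0.15. At an unadjusted p under 0.05 the licensing group had 2 lower genes in KMS-12-BM and 2 lower and 1 higher in KMS-12-PE, and voom called 4 lower in KMS-12-BM and 2 lower and 1 higher in KMS-12-PE.

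The 6 genes of helicase activation were the group with the most calls in the KMS-12 lines. All 6 were lower in both MM1 lines, 3 of 6 (CDC45, GINS3 and MCM10) in KMS-12-BM, and 5 of 6 in KMS-12-PE, where GINS2 was not called (0.05). The call of GINS1 in KMS-12-PE was lost with voom, with median-of-ratios scaling and with the replicate block, and in 4 of 24 fits that left out 1 library, each of KMS-12-PE (siIRF4 replicate 1, siIRF4 replicate 3, CTRL replicate 1 or CTRL replicate 3), with the highest adjusted p at 0.107. CDC45, the activator that binds the MCM ring with GINS, was lower in all 4 lines. CDC45 had 44.3, 50.4 and 52.1 TPM in siIRF4 and 89.1, 83.7 and 88.7 TPM in CTRL libraries of MM1R. In MM1S CDC45 had 33.9, 36.8 and 35.2 TPM in siIRF4 and 74.3, 76.4 and 74.8 TPM in CTRL libraries. Both MM1 lines kept their siIRF4 and CTRL libraries apart. CDC45 had 40.5, 39.0 and 39.9 TPM in siIRF4 and 47.3, 48.5 and 48.0 TPM in CTRL libraries of KMS-12-BM. In KMS-12-PE CDC45 had 41.2, 40.2 and 39.8 TPM in siIRF4 and 53.3, 51.6 and 54.0 TPM in CTRL libraries. In no line did its siIRF4 and CTRL libraries overlap, and it changed by -0.82 (SE 0.05, adjusted p = 2.76e-11) in MM1R, -1.07 (SE 0.05, adjusted p = 7.51e-13) in MM1S, -0.26 (SE 0.05, adjusted p = 0.00037) in KMS-12-BM and -0.38 (SE 0.05, adjusted p = 1.22e-06) in KMS-12-PE.

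MCM10, a scaffold needed for origin firing that is no part of the MCM ring, was also called lower in all 4 lines. MCM10 had 15.5, 15.8 and 18.6 TPM in siIRF4 and 30.02, 29.2 and 31.8 TPM in CTRL libraries of MM1R. In MM1S MCM10 had 16.8, 16.2 and 16.2 TPM in siIRF4 and 38.2, 36.0 and 36.7 TPM in CTRL libraries. The siIRF4 libraries of both lines lay well under the CTRL libraries. MCM10 had 22.2, 24.4 and 26.6 TPM in siIRF4 and 27.9, 28.4 and 28.6 TPM in CTRL libraries of KMS-12-BM. In KMS-12-PE MCM10 had 67.6, 65.6 and 69.0 TPM in siIRF4 and 86.8, 81.6 and 85.6 TPM in CTRL libraries. Its groups did not overlap, although in KMS-12-BM the highest siIRF4 library came close to the lowest CTRL library. It changed by -0.83 (SE 0.06, adjusted p = 5.47e-10) in MM1R, -1.13 (SE 0.06, adjusted p = 5.84e-12) in MM1S, -0.21 (SE 0.06, adjusted p = 0.0199) in KMS-12-BM and -0.32 (SE 0.06, adjusted p = 0.000193) in KMS-12-PE. The call in KMS-12-BM was lost when that line was fitted alone and when 1 of 3 of its own libraries was left out (siIRF4 replicate 1, CTRL replicate 2 or CTRL replicate 3), with the highest adjusted p at 0.142. GINS3, a subunit of the GINS complex, averaged 22.9 ± 1.48 TPM in siIRF4 and 27.3 ± 0.162 TPM in CTRL cells of KMS-12-BM and 18.6 ± 1.18 TPM in siIRF4 and 24.9 ± 0.981 TPM in CTRL cells of KMS-12-PE (SD, n = 3 each), and changed by -0.24 (SE 0.08, adjusted p = 0.0389) in KMS-12-BM and -0.40 (SE 0.08, adjusted p = 0.000431) in KMS-12-PE. Its call in KMS-12-BM was lost with no filter on low values and when any library of that line but siIRF4 replicate 3 was left out, with the highest adjusted p at 0.179, while its call in KMS-12-PE held in 24 of 24 such fits.

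Polymerases, the clamp and its loaders made up 12 genes: PCNA, the clamp loader subunits RFC2 to RFC5, DSCC1 of the loader that acts in sister chromatid cohesion, POLA1, POLA2 and PRIM1 of the primase complex, POLD1, POLE and POLE2. All 12 were lower in both MM1 lines and 4 of 12 in KMS-12-PE, namely RFC5, DSCC1, POLA1 and PRIM1. RFC5 lost its call without siIRF4 replicate 3 or CTRL replicate 3 of KMS-12-PE, with the highest adjusted p at 0.0722. For KMS-12-BM limma called 0 of the 12, with 1 lower at an unadjusted p under 0.05 and 1 lower by voom. DSCC1 had 28.4, 32.0 and 34.9 TPM in siIRF4 and 52.4, 52.7 and 54.6 TPM in CTRL libraries of MM1R. In MM1S DSCC1 had 21.7, 22.3 and 21.9 TPM in siIRF4 and 46.3, 44.5 and 45.6 TPM in CTRL libraries. It changed by -0.73 (SE 0.06, adjusted p = 1.57e-09) in MM1R and -1.01 (SE 0.06, adjusted p = 1.13e-11) in MM1S, more than any other gene of this role in both lines. DSCC1 had 65.5, 61.7 and 63.3 TPM in siIRF4 and 59.6, 60.2 and 60.3 TPM in CTRL libraries of KMS-12-BM. In KMS-12-PE DSCC1 had 54.1, 47.4 and 48.2 TPM in siIRF4 and 58.0, 55.7 and 61.4 TPM in CTRL libraries. In KMS-12-BM all siIRF4 libraries of DSCC1 were above the CTRL libraries, which was not called, and in KMS-12-PE all were below them: 0.08 (SE 0.06, adjusted p = 0.383) in KMS-12-BM and -0.22 (SE 0.06, adjusted p = 0.00374) in KMS-12-PE.

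POLA2, the accessory subunit of polymerase alpha, followed. POLA2 had 44.9, 54.0 and 51.7 TPM in siIRF4 and 77.2, 86.2 and 83.8 TPM in CTRL libraries of MM1R. In MM1S POLA2 had 42.9, 40.9 and 41.1 TPM in siIRF4 and 73.7, 74.2 and 79.4 TPM in CTRL libraries. It fell without overlap, with changes of -0.71 (SE 0.06, adjusted p = 2.6e-09) in MM1R and -0.85 (SE 0.06, adjusted p = 1.34e-10) in MM1S. POLA2 had 92.8, 95.5 and 88.0 TPM in siIRF4 and 95.5, 91.8 and 88.4 TPM in CTRL libraries of KMS-12-BM. In KMS-12-PE POLA2 had 161, 148 and 154 TPM in siIRF4 and 164, 166 and 156 TPM in CTRL libraries. These libraries overlapped in both KMS-12 lines, and neither value, 0.00 (SE 0.06, adjusted p = 0.992) in KMS-12-BM or -0.07 (SE 0.06, adjusted p = 0.378) in KMS-12-PE, was called. The catalytic subunit POLA1 and the primase PRIM1 did fall in KMS-12-PE, with changes of -0.30 (SE 0.05, adjusted p = 8.12e-05) and -0.21 (SE 0.04, adjusted p = 0.000367). PCNA, the sliding clamp, averaged 202 ± 7.49 TPM in siIRF4 and 359 ± 6.21 TPM in CTRL cells of MM1S and 425 ± 11.5 TPM in siIRF4 and 419 ± 25.3 TPM in CTRL cells of KMS-12-PE (SD, n = 3 each). POLE2, a small subunit of polymerase epsilon, had the lowest level of the 43 genes in the MM1 lines and the smallest fall in MM1R, -0.43, beside -0.76 in MM1S.

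Of the 3 genes that finish the lagging strand or resect DNA, the flap nuclease FEN1, the ligase LIG1 and the exonuclease EXO1, all 3 were lower in both MM1 lines, and their behaviour in the KMS-12 lines differed. EXO1 had 35.4, 37.5 and 41.2 TPM in siIRF4 and 70.8, 66.8 and 71.2 TPM in CTRL libraries of MM1R. In MM1S EXO1 had 40.9, 36.4 and 35.5 TPM in siIRF4 and 78.4, 81.5 and 74.8 TPM in CTRL libraries. In each of these lines the highest siIRF4 library was far below the lowest CTRL library. EXO1 had 49.9, 50.04 and 52.3 TPM in siIRF4 and 58.8, 60.0 and 57.5 TPM in CTRL libraries of KMS-12-BM. In KMS-12-PE EXO1 had 102, 94.6 and 99.8 TPM in siIRF4 and 126, 126 and 123 TPM in CTRL libraries. EXO1 was lower without overlap in all 4 lines, with changes of -0.86 (SE 0.05, adjusted p = 1e-10) in MM1R, -1.04 (SE 0.05, adjusted p = 4.49e-12) in MM1S, -0.21 (SE 0.05, adjusted p = 0.00877) in KMS-12-BM and -0.34 (SE 0.05, adjusted p = 2.96e-05) in KMS-12-PE. FEN1 had 153, 174 and 179.7 TPM in siIRF4 and 275, 271 and 274 TPM in CTRL libraries of MM1R. In MM1S FEN1 had 163, 149 and 161 TPM in siIRF4 and 294, 285 and 294 TPM in CTRL libraries. It fell in both, with changes of -0.70 (SE 0.04, adjusted p = 1e-10) in MM1R and -0.88 (SE 0.04, adjusted p = 2.69e-12) in MM1S. FEN1 had 244, 236 and 248 TPM in siIRF4 and 249.7, 244 and 249.9 TPM in CTRL libraries of KMS-12-BM. In KMS-12-PE FEN1 had 258, 265 and 262 TPM in siIRF4 and 279, 283 and 283 TPM in CTRL libraries. The libraries overlapped in KMS-12-BM and did not in KMS-12-PE, and the values of -0.03 (SE 0.04, adjusted p = 0.702) in KMS-12-BM and -0.10 (SE 0.04, adjusted p = 0.0605) in KMS-12-PE were not called. In KMS-12-PE FEN1 was called lower when that line was fitted alone (adjusted p = 0.0244) and with a filter on a mean of 5 TPM (adjusted p = 0.0481). It was also called there without MM1R siIRF4 replicate 1, MM1R siIRF4 replicate 3 or MM1S siIRF4 replicate 2.

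LIG1, which seals Okazaki fragments, was called lower in the MM1 lines and higher in KMS-12-PE. LIG1 had 49.2, 58.5 and 61.9 TPM in siIRF4 and 82.9, 84.1 and 89.4 TPM in CTRL libraries of MM1R. In MM1S LIG1 had 45.9, 43.4 and 42.0 TPM in siIRF4 and 71.0, 72.6 and 71.2 TPM in CTRL libraries. It changed there by -0.59 (SE 0.06, adjusted p = 6.63e-08) in MM1R and -0.70 (SE 0.06, adjusted p = 4.7e-09) in MM1S. LIG1 had 54.8, 52.3 and 51.8 TPM in siIRF4 and 47.5, 49.2 and 47.5 TPM in CTRL libraries of KMS-12-BM. In KMS-12-PE LIG1 had 22.8, 22.5 and 23.2 TPM in siIRF4 and 19.4, 19.4 and 17.5 TPM in CTRL libraries. All siIRF4 libraries of both KMS-12 lines were above their CTRL libraries. The rise was called in KMS-12-PE, at 0.27 (SE 0.06, adjusted p = 0.0011), and held in 24 of 24 fits that left out 1 library, with the highest adjusted p at 0.00974. In KMS-12-BM the value of 0.14 (SE 0.06, adjusted p = 0.126) was not called.

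**Figure D3:**
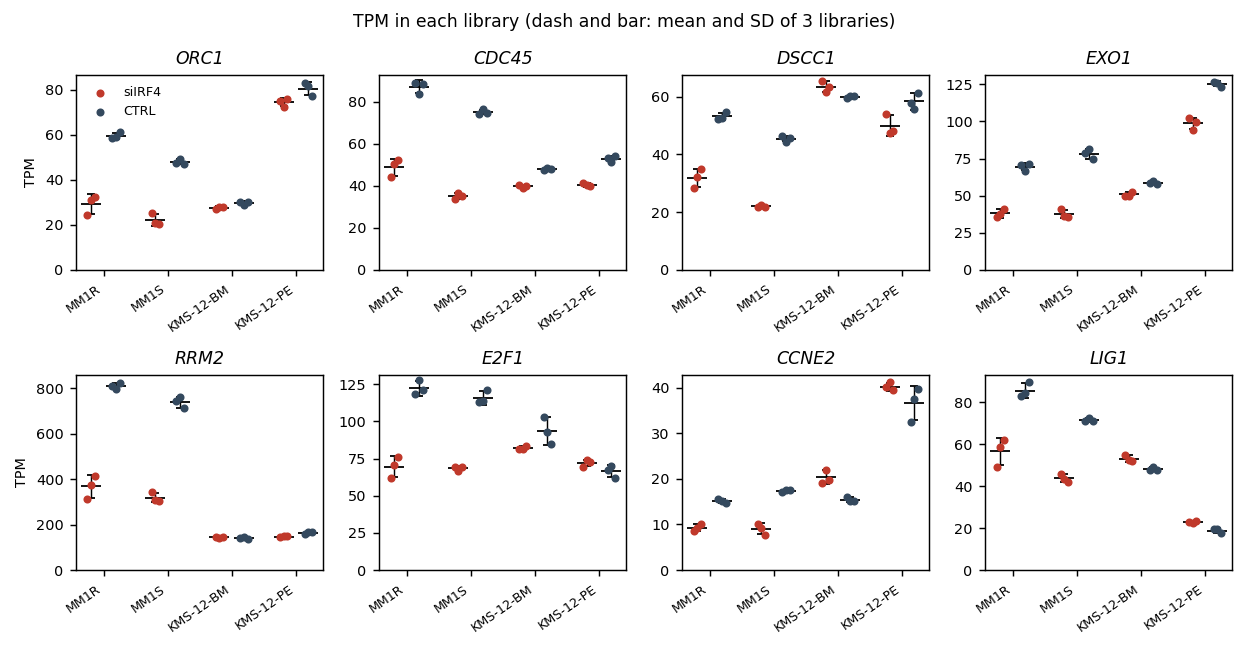
TPM in each library of 8 of the genes, siIRF4 in red and CTRL in dark blue, by line, with the mean and SD of 3 libraries. The siIRF4 libraries of MM1R and MM1S lie below CTRL for all 8, CDC45 and EXO1 also fall in the KMS-12 lines, LIG1 rises in KMS-12-PE and CCNE2 rises in KMS-12-BM.

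The 4 nucleotide supply genes were all lower in both MM1 lines. In KMS-12-BM limma called 0 of 4, with 0 also at an unadjusted p under 0.05 and by voom. RRM2, the small subunit of ribonucleotide reductase that limits deoxynucleotide supply in S phase, showed the largest change of the 43 genes in both. RRM2 had 314, 374 and 415 TPM in siIRF4 and 808, 797 and 824 TPM in CTRL libraries of MM1R. In MM1S RRM2 had 341, 308 and 305 TPM in siIRF4 and 742, 759 and 713 TPM in CTRL libraries. The mean of RRM2 fell by 54.6% in MM1R and by 56.9% in MM1S, with changes of -1.15 (SE 0.06, adjusted p = 2.49e-11) in MM1R and -1.21 (SE 0.06, adjusted p = 5.26e-12) in MM1S. RRM2 had 146, 140.3 and 147 TPM in siIRF4 and 140.1, 145 and 135 TPM in CTRL libraries of KMS-12-BM. In KMS-12-PE RRM2 had 143, 148 and 148 TPM in siIRF4 and 161, 166 and 165 TPM in CTRL libraries. The libraries overlapped in KMS-12-BM, at 0.04 (SE 0.06, adjusted p = 0.711). In KMS-12-PE they did not overlap, and the value of -0.16 (SE 0.06, adjusted p = 0.0489) lay at the edge of the threshold: the call was lost in 21 of 24 fits without 1 library and in 4 of 8 other settings, with adjusted p between 0.00495 and 0.13. The large subunit RRM1 changed by -0.61 in MM1R and by -0.77 in MM1S. The ratio of RRM2 to RRM1 in TPM averaged 2.69 ± 0.18 in siIRF4 and 3.89 ± 0.13 in CTRL cells of MM1R, and 2.03 ± 0.13 in siIRF4 and 2.76 ± 0.06 in CTRL cells of MM1S (SD, n = 3 each). In the KMS-12 lines that ratio was 0.81 ± 0.02 in siIRF4 and 0.78 ± 0.02 in CTRL cells of KMS-12-BM, and 0.54 ± 0.03 in siIRF4 and 0.571 ± 0.0037 in CTRL cells of KMS-12-PE.

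Thymidylate synthase, TYMS, and thymidine kinase, TK1, make the same nucleotide by different routes. TYMS had 111, 119 and 108 TPM in siIRF4 and 203, 192 and 197 TPM in CTRL libraries of MM1R. In MM1S TYMS had 112, 110.2 and 105 TPM in siIRF4 and 187, 172 and 184 TPM in CTRL libraries. No MM1 library of the siIRF4 arm came near the CTRL libraries. TYMS had 153, 178 and 205 TPM in siIRF4 and 188, 200.3 and 183 TPM in CTRL libraries of KMS-12-BM. In KMS-12-PE TYMS had 272, 310.0 and 327 TPM in siIRF4 and 310.4, 316 and 299 TPM in CTRL libraries. The change of TYMS was -0.81 (SE 0.08, adjusted p = 3.55e-08) in MM1R and -0.72 (SE 0.08, adjusted p = 1.28e-07) in MM1S, and in the KMS-12 lines the siIRF4 libraries spread over more than the CTRL range and overlapped it, at -0.10 (SE 0.08, adjusted p = 0.424) in KMS-12-BM and -0.03 (SE 0.08, adjusted p = 0.822) in KMS-12-PE. TK1 had 118, 137 and 151 TPM in siIRF4 and 231, 250.3 and 244 TPM in CTRL libraries of MM1R. In MM1S TK1 had 125, 114 and 116 TPM in siIRF4 and 214, 222 and 219.5 TPM in CTRL libraries. TK1 changed by -0.84 (SE 0.06, adjusted p = 4.6e-10) in MM1R and -0.88 (SE 0.06, adjusted p = 1.41e-10) in MM1S. TK1 had 106, 110.1 and 111 TPM in siIRF4 and 114, 106 and 111 TPM in CTRL libraries of KMS-12-BM. In KMS-12-PE TK1 had 297, 288 and 284 TPM in siIRF4 and 257, 272 and 255 TPM in CTRL libraries. All siIRF4 libraries of TK1 were above CTRL in KMS-12-PE, at 0.15 (SE 0.06, adjusted p = 0.0513), which just missed the threshold and passed it in 5 of 8 other settings and 4 of 24 fits without 1 library. In KMS-12-BM the libraries overlapped, at -0.02 (SE 0.06, adjusted p = 0.88).

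Among the G1/S regulators the E2F activators E2F1 and E2F2 and the E-type cyclins CCNE1 and CCNE2 were lower in both MM1 lines. E2F1 had 62.0, 70.6 and 76.2 TPM in siIRF4 and 118, 128 and 121 TPM in CTRL libraries of MM1R. In MM1S E2F1 had 69.6, 66.95 and 69.3 TPM in siIRF4 and 113, 114 and 121 TPM in CTRL libraries. The siIRF4 libraries were the lower ones throughout in these lines. E2F1 had 81.8, 81.5 and 83.5 TPM in siIRF4 and 103, 92.8 and 84.5 TPM in CTRL libraries of KMS-12-BM. In KMS-12-PE E2F1 had 69.5, 73.8 and 72.5 TPM in siIRF4 and 67.1, 70.0 and 62.2 TPM in CTRL libraries. E2F1 changed by -0.81 (SE 0.07, adjusted p = 2.75e-09) in MM1R and -0.75 (SE 0.07, adjusted p = 6.1e-09) in MM1S. It was not called in either KMS-12 line, where its values had opposite signs: below CTRL without overlap in KMS-12-BM, at -0.18 (SE 0.07, adjusted p = 0.0673), and overlapping CTRL in KMS-12-PE, at 0.11 (SE 0.07, adjusted p = 0.188). In KMS-12-BM E2F1 was called lower with voom and with median-of-ratios scaling. E2F2 had 55.0, 61.3 and 65.0 TPM in siIRF4 and 108, 107 and 115 TPM in CTRL libraries of MM1R. In MM1S E2F2 had 64.8, 56.8 and 56.9 TPM in siIRF4 and 103, 108 and 102 TPM in CTRL libraries. Here too the siIRF4 libraries were all below CTRL. E2F2 had 77.0, 66.3 and 71.2 TPM in siIRF4 and 72.8, 73.3 and 74.7 TPM in CTRL libraries of KMS-12-BM. In KMS-12-PE E2F2 had 38.2, 39.6 and 40.3 TPM in siIRF4 and 41.3, 41.1 and 37.0 TPM in CTRL libraries. E2F2 changed by -0.86 (SE 0.06, adjusted p = 6.2e-10) in MM1R and -0.80 (SE 0.06, adjusted p = 1.1e-09) in MM1S, and lay close to CTRL, with overlapping libraries, at -0.04 (SE 0.06, adjusted p = 0.708) in KMS-12-BM and -0.01 (SE 0.06, adjusted p = 0.907) in KMS-12-PE.

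CCNE2, a cyclin that activates CDK2, was the other gene called in opposite directions. CCNE2 had 8.64, 9.16 and 10.1 TPM in siIRF4 and 15.5, 15.2 and 14.7 TPM in CTRL libraries of MM1R. In MM1S CCNE2 had 10.1, 9.30 and 7.71 TPM in siIRF4 and 17.1, 17.5 and 17.5 TPM in CTRL libraries. It changed by -0.65 (SE 0.08, adjusted p = 6.75e-07) in MM1R and -0.88 (SE 0.08, adjusted p = 7.93e-09) in MM1S. CCNE2 had 19.2, 22.1 and 19.8 TPM in siIRF4 and 16.1, 15.1 and 15.1 TPM in CTRL libraries of KMS-12-BM. In KMS-12-PE CCNE2 had 40.1, 41.2 and 39.4 TPM in siIRF4 and 32.5, 37.6 and 39.8 TPM in CTRL libraries. In KMS-12-BM every siIRF4 library was above every CTRL library and CCNE2 rose by 0.37 (SE 0.08, adjusted p = 0.00183), a call kept in 24 of 24 fits without 1 library. In KMS-12-PE the libraries overlapped, at 0.14 (SE 0.08, adjusted p = 0.186). CCNE1 was not called in KMS-12-BM (0.03) or in KMS-12-PE (-0.05). For KMS-12-PE limma called 0 of the 4 regulators, with 0 at an unadjusted p under 0.05 and 1 higher by voom.

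The last 4 genes act behind or beside the fork: UHRF1 in maintenance of DNA methylation, CHAF1A and CHAF1B in the assembly of histones on new DNA, and CLSPN, or claspin, in the checkpoint that responds to stalled forks. All 4 were lower in both MM1 lines. CLSPN had 17.1, 17.7 and 19.7 TPM in siIRF4 and 31.2, 30.2 and 30.7 TPM in CTRL libraries of MM1R. In MM1S CLSPN had 15.8, 13.6 and 15.1 TPM in siIRF4 and 29.0, 27.1 and 27.8 TPM in CTRL libraries. The arms were separated in both MM1 lines. CLSPN had 13.3, 12.5 and 14.2 TPM in siIRF4 and 12.2, 13.1 and 12.6 TPM in CTRL libraries of KMS-12-BM. In KMS-12-PE CLSPN had 24.2, 25.7 and 25.7 TPM in siIRF4 and 29.99, 29.0 and 31.1 TPM in CTRL libraries. CLSPN changed by -0.73 (SE 0.06, adjusted p = 1.79e-09) in MM1R, -0.88 (SE 0.06, adjusted p = 1.01e-10) in MM1S and -0.24 (SE 0.06, adjusted p = 0.002) in KMS-12-PE, and overlapped CTRL in KMS-12-BM, at 0.07 (SE 0.06, adjusted p = 0.479). CHAF1A had 86.3, 98.8 and 105 TPM in siIRF4 and 157, 158 and 157 TPM in CTRL libraries of MM1R. In MM1S CHAF1A had 70.0, 67.3 and 69.0 TPM in siIRF4 and 120.1, 117 and 126 TPM in CTRL libraries. These siIRF4 libraries were all lower than their CTRL libraries. CHAF1A had 107, 112 and 107 TPM in siIRF4 and 117, 119 and 119 TPM in CTRL libraries of KMS-12-BM. In KMS-12-PE CHAF1A had 90.8, 91.8 and 91.1 TPM in siIRF4 and 102, 103 and 93.6 TPM in CTRL libraries. CHAF1A lay below CTRL without overlap in every line, with changes of -0.70 (SE 0.05, adjusted p = 4.69e-10) in MM1R and -0.81 (SE 0.05, adjusted p = 4.84e-11) in MM1S and values of -0.12 (SE 0.05, adjusted p = 0.0995) in KMS-12-BM and -0.12 (SE 0.05, adjusted p = 0.0593) in KMS-12-PE that were not called. In KMS-12-BM limma called 0 of these 4 genes, with 1 lower at an unadjusted p under 0.05 and 1 lower by voom.

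The 22 genes with a match had a median change of -0.71 in MM1R and -0.76 in MM1S, and the 16 genes with a promoter but no match had -0.70 in MM1R and -0.85 in MM1S. The genes without a match in the window include RRM2, ORC1 and CDC45, and these medians are a description with no test.

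The difference between the pairs of lines was tested directly, as the mean change of the MM1 lines minus the mean change of the KMS-12 lines. It was negative and called for 43 of 43 genes, where 20.0% of all tested genes were called lower and 25.0% higher. The values ran from -1.12 (RRM2) to -0.32 (POLA1), with a median of -0.67. RRM2 had -1.12 (SE 0.06, adjusted p = 2.66e-11), CCNE2 had -1.02 (SE 0.08, adjusted p = 1.18e-09) and ORC1 had -0.94 (SE 0.08, adjusted p = 2.51e-09). At the other end POLA1 had -0.32 (SE 0.05, adjusted p = 2.6e-05) and PRIM1 had -0.49 (SE 0.04, adjusted p = 5.05e-09), both of which also fell in KMS-12-PE. The smallest fall of any of the 43 genes in the MM1 lines, -0.43, was larger in size than the largest fall in a KMS-12 line, -0.40 for GINS3 in KMS-12-PE. With 2 pairs of sister lines the difference is between these pairs and says nothing of other lines.

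Within the pairs the lines were closer. The change was more negative in MM1S than in MM1R for 36 of the 43 genes, while over all 15113 tested genes it was more negative in MM1R for 8278. The MM1R minus MM1S difference was called for 2 of 43, both higher, where 1.14% of all tested genes were higher and 1.33% lower: CDC45 had 0.25 (SE 0.07, adjusted p = 0.0475) and RFC5, a clamp loader subunit, had 0.31 (SE 0.08, adjusted p = 0.0363). Leaving out 1 library moved that count in 19 of 24 cases, to between 0 and 15. It was 15 without MM1R siIRF4 replicate 1, all with the smaller fall in MM1R, and other settings gave between 0 and 11. Between the KMS-12 lines, KMS-12-BM minus KMS-12-PE, 3 of 43 were called higher, where 15.9% of tested genes were, and 1 lower, where 7.11% were. GINS4 had 0.28 (SE 0.07, adjusted p = 0.00407), DSCC1 had 0.30 (SE 0.08, adjusted p = 0.0094) and CLSPN had 0.31 (SE 0.08, adjusted p = 0.00831), each of them lower in KMS-12-PE. E2F1 had -0.29 (SE 0.09, adjusted p = 0.0273). The lower count was 0 in 5 fits that left out 1 library and 6 with voom, where 1799 of 14935 tested genes were lower. The higher count was 5 in a separate fit and without KMS-12-PE CTRL replicate 1.

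In the KMS-12 lines most of the genes were called in neither line. The genes called lower in both were CDC45, GINS3, MCM10 and EXO1, of which CDC45 and EXO1 kept both calls in 24 of 24 fits that left out 1 library, and 26 of the 43 were not called in KMS-12-BM or KMS-12-PE. Taken by line, 37 of the 43 were not called in KMS-12-BM, beside 12463 of 15113 tested genes, and 28 in KMS-12-PE, beside 9349. Both are near the share over all tested genes. How many of all tested genes were called in both lines or in neither was not counted. In KMS-12-BM 14 genes had all siIRF4 libraries below all CTRL libraries, where 12.3% of tested genes did, and 4 had them above (DSCC1, LIG1, CCNE2 and CHAF1B), where 22.0% did. In KMS-12-PE 21 genes had them below, where 27.7% of tested genes did, and 3 above (MCM5, LIG1 and TK1), where 19.7% did. No gene of the 43 changed by 1 or more on the log2 scale in a KMS-12 line, against 2 in MM1R (ORC1 and RRM2) and 7 in MM1S (ORC1, CDC6, CDC45, MCM10, DSCC1, EXO1 and RRM2). The number of all tested genes that changed by as much was not counted. Across the 43 genes the changes correlated at r = 0.681 between MM1R and MM1S and at r = 0.494 between KMS-12-BM and KMS-12-PE, and at 0.128 to 0.329 across the pairs. These r are over genes of the same libraries and are given as a description.

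The CTRL cells of the 4 lines did not start from the same composition of replication genes, although their summed levels, 5519.9 to 6056.9 TPM, were alike. MM1 minus KMS-12 was called higher for 20 of 43 genes, where 40.4% of all tested genes were, and lower for 20, where 44.8% were. These counts are near the shares over all tested genes, so such differences are not particular to the replication genes. RRM2 differed most, at 2.34 (SE 0.04, adjusted p = 4.62e-22): it was the highest of the 43 genes in CTRL cells of MM1R, with 809.8 TPM, and of MM1S, with 738.1 TPM, and had 140.1 TPM in KMS-12-BM and 163.9 TPM in KMS-12-PE. LIG1, at 1.35 (SE 0.04, adjusted p = 4.11e-18), and CCNE1, at 1.02 (SE 0.05, adjusted p = 7.37e-15), were also higher in the MM1 lines. POLE2 was at the other end, at -1.81 (SE 0.06, adjusted p = 6.09e-18), with 7.97 ± 0.86 TPM in MM1R, 10.0 ± 0.81 TPM in MM1S, 47.7 ± 0.68 TPM in KMS-12-BM and 23.8 ± 1.02 TPM in KMS-12-PE (SD, n = 3 each), an order in which each neighbour lies beyond the SDs. RFC5, at -1.38 (SE 0.04, adjusted p = 3.73e-19), and MCM7, at -0.87 (SE 0.03, adjusted p = 3.55e-17), were lower in the MM1 lines as well.

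Sister lines were compared in the same way. MM1R minus MM1S was called higher for 16 of 43 genes (29.7% of all tested genes) and lower for 9 (27.6%), from -0.46 (RFC4) to 0.73 (GINS1). KMS-12-BM minus KMS-12-PE was called higher for 15 (37.3%) and lower for 19 (40.0%), from -1.57 (ORC6) and -1.55 (MCM10) to 1.29 (MCM5) and 1.31 (LIG1). These KMS-12 counts are near the shares over all tested genes. Subunits of 1 complex were not at equal levels. Among MCM2 to MCM7 the highest CTRL mean was 6.04 times the lowest in KMS-12-BM, where MCM7 reached 807.1 TPM and MCM6 had 133.7 TPM, and 1.502 times the lowest in MM1S, where MCM3 had 295.4 TPM and MCM6 196.6 TPM. The ratio of MCM5 to MCM6 was 2.37 ± 0.09 in siIRF4 and 2.26 ± 0.04 in CTRL cells of KMS-12-BM, and 0.48 ± 0.02 in siIRF4 and 0.43 ± 0.03 in CTRL cells of KMS-12-PE. CCNE2 to CCNE1 was 0.54 ± 0.02 in siIRF4 and 0.42 ± 0.01 in CTRL cells of KMS-12-BM, and 1.99 ± 0.14 in siIRF4 and 1.75 ± 0.20 in CTRL cells of KMS-12-PE (SD, n = 3 each).

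**Figure D4:**
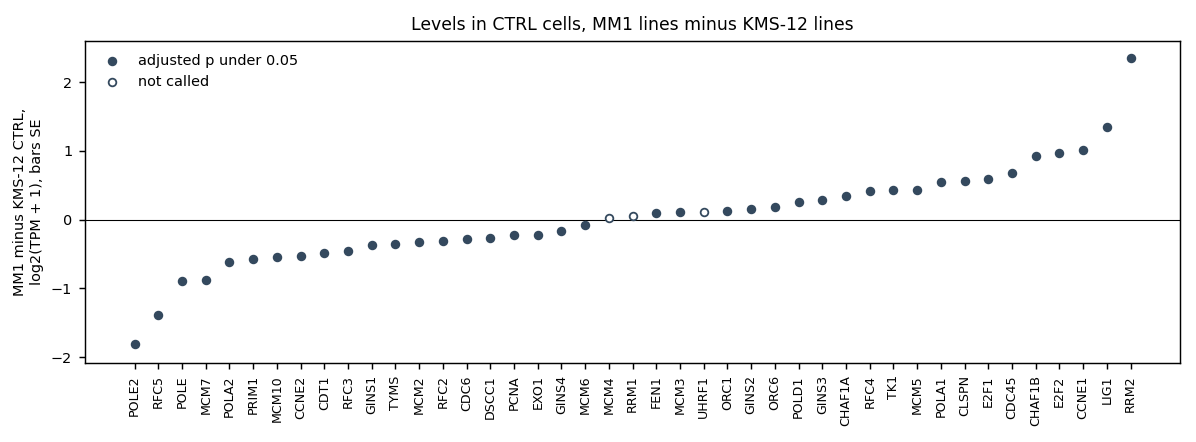
CTRL levels of the 43 genes, as the mean of MM1R and MM1S minus the mean of KMS-12-BM and KMS-12-PE on the log2(TPM + 1) scale, ordered by size, with bars for the SE that are mostly smaller than the symbols. RRM2 lies highest, at 2.34, POLE2 lowest, at -1.81, and 3 genes (MCM4, RRM1 and UHRF1) were not called.

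Other genes of replication and of the cell cycle, from lists that do not overlap the 43, were mostly called lower in the MM1 lines. Of 32 other replication genes 27 were lower and 1 higher in MM1R, 28 lower and 1 higher in MM1S, 2 lower and 2 higher in KMS-12-BM, and 10 lower and 4 higher in KMS-12-PE. Over all tested genes, the background for every list here, 21.2% were lower and 25.0% higher in MM1R, 21.1% lower and 29.1% higher in MM1S, 6.09% lower and 11.4% higher in KMS-12-BM, and 22.2% lower and 15.9% higher in KMS-12-PE. The share lower in KMS-12-BM was thus near the background. The gene that rose in the MM1 lines was POLD4, the small accessory subunit of polymerase delta, and it rose in all 4 lines, by 0.67, 0.67, 0.80 and 0.59 in the order MM1R, MM1S, KMS-12-BM and KMS-12-PE (SE 0.06 each, limma, largest adjusted p = 1.8e-07). TIPIN, of the fork protection complex, fell in MM1R (-0.63), MM1S (-0.80) and KMS-12-PE (-0.15).

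Among 22 RB, E2F and CDK2 regulators 13 were lower and 2 higher in MM1R, 14 lower and 4 higher in MM1S, 3 lower and 6 higher in KMS-12-BM, and 11 lower and 3 higher in KMS-12-PE. CDC25A, the phosphatase that activates CDK2, and MYBL2, an activator of late cell cycle genes, fell in all 4 lines, CDC25A with changes of -1.004, -1.05, -0.23 and -0.32, and MYBL2 with -0.995, -0.89, -0.26 and -0.32, in the same order of lines. CDK2 itself fell in MM1R (-0.78) and MM1S (-0.76) and rose in KMS-12-PE (0.19). The repressor E2F7 fell in the MM1 lines (-0.77 and -0.86) and rose in KMS-12-BM (0.30), as did FBXO5, an inhibitor of the anaphase-promoting complex (-0.73, -0.74 and 0.16). E2F5 went the other way, rising in MM1R (0.27) and MM1S (0.49) while both KMS-12 lines had a fall (-0.40 in KMS-12-BM, -0.23 in KMS-12-PE).

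Of 21 other nucleotide supply genes 15 were lower and 2 higher in MM1R, 17 lower and 2 higher in MM1S, 3 lower and 1 higher in KMS-12-BM, and 10 lower and 2 higher in KMS-12-PE. RRM2B, the reductase subunit that p53 induces, moved against RRM2 in the MM1 lines: it rose in MM1R (0.76), MM1S (0.75) and KMS-12-BM (0.48) and fell in KMS-12-PE (-0.30). CTPS1, which makes CTP, fell in all 4 lines (-0.40, -0.54, -0.17 and -0.24), and DUT, which removes dUTP, in the MM1 lines (-0.41 and -0.56). DTYMK, the kinase that turns dTMP into dTDP, fell in the MM1 lines (-0.55 and -0.69) and rose in KMS-12-PE (0.13).

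Of 20 checkpoint and recombination genes 17 were lower in MM1R and 17 in MM1S, 2 were lower and 1 higher in KMS-12-BM, and 7 lower and 3 higher in KMS-12-PE. XRCC2, a factor of homologous recombination, fell in all 4 lines (-0.92, -1.04, -0.18 and -0.20), and RAD54L, a DNA motor of the same pathway, in MM1R (-0.84), MM1S (-0.87) and KMS-12-PE (-0.28). FANCA, of the Fanconi anemia pathway, fell in MM1R (-0.30) and MM1S (-0.27) and rose in KMS-12-PE (0.28), and so did RMI2, which acts with the BLM helicase (-0.56, -0.40 and 0.34). The 22 genes of mitosis and G2/M were all lower in MM1R and in MM1S, while 4 were higher in KMS-12-BM and 4 higher and 2 lower in KMS-12-PE. AURKA, a spindle kinase, and CCNB1, the mitotic cyclin, fell in MM1R (-0.73 and -0.74) and in MM1S (-0.65 and -0.64) and were called in neither KMS-12 line.

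**Figure D5:**
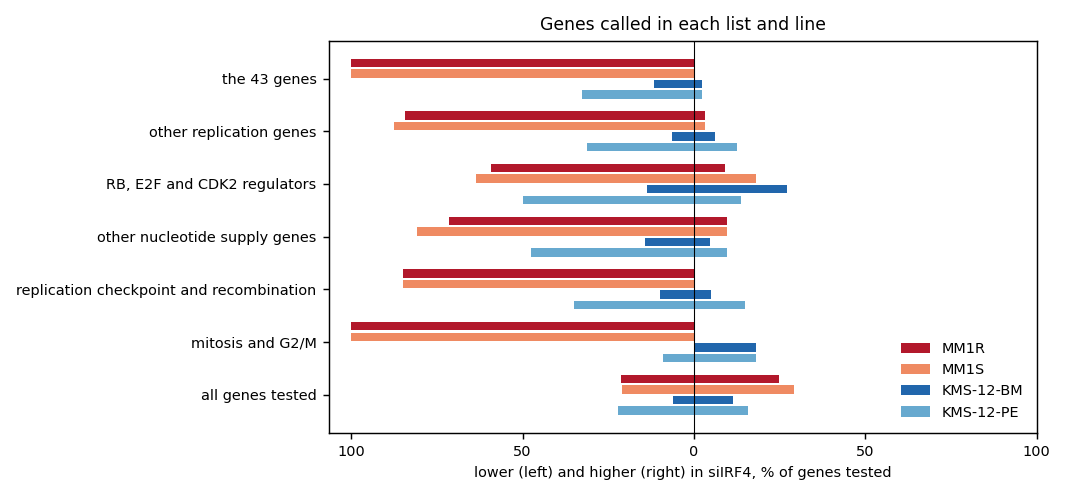
Share of genes called lower (bars to the left) and higher (bars to the right) after siIRF4, in % of the genes tested, for the 43 genes, 5 other lists and all tested genes, by line. The MM1 bars reach 100% lower for the 43 genes and for mitosis and G2/M, and the bars to the left are shorter in the KMS-12 lines for these lists.

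Some of these genes share exon positions or sequence with other genes, and how the deposited counting treated such reads is not known here. Of the 43 genes, 10 overlap an exon of another coding gene on the opposite strand in GENCODE 29. Among these are TYMS with ENOSF1, FEN1 with TMEM258, MCM7 with AP4M1, CCNE2 with INTS8 and RFC5 with WSB2. A further overlap, on the same strand, is found for 6 of the 43, and 6 have pseudogenes of their name, among them RRM2 and PCNA. Whether the counting used strand is not given in the sources used here, so the values of these genes are less certain by an amount that was not measured.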

How the data were processed

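Per the labels' protocols, RNA was extracted with a Zymo kit and sequenced after NEBNext Ultra II preparation. STAR, featureCounts and hg19 are named in the submitters' processing notes, but the sources used here give neither their order and versions nor the use of strand. The authors deposited TPM values per gene symbol for 24 libraries in 8 groups of 3. Of 25370 listed rows, 28 with gene names turned into dates and 1 without a gene name were left out.

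TPM values of a gene are whole multiples of what 1 read is worth, from which whole reads were recovered for 20484 genes within 0.02 reads. Genes with at least 1 TPM in at least 3 libraries (15113) were tested on log2(TPM + 1) in 1 fit of 8 group means by limma 3.58.1 under R 4.3.3 (robust eBayes prior with a trend), with Benjamini-Hochberg adjustment over all tested genes. Code was tested on simulated data. The files held TPM and no counts, so limma was used and voom on the recovered reads was an alternative. Other alternatives were median-of-ratios scaling, a pseudocount of 0.1 TPM, a filter on a mean of 5 TPM or none, a prior without trend, the replicate number as a block, separate fits and leaving out each library. Values in every library are given for the 2 members of each role with the largest average change, and for the 2 with the largest rise in a line with a member called higher. From the other lists the genes named are the 2 with the smallest p on average and those called in opposite directions, not all of which are reported here. The members, lists and tests were chosen with earlier results of these data known.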

Additional observations from a re-analysis of the deposited data

Results flagged for a closer look

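The change after siIRF4 differed between the MM1 lines and the KMS-12 lines for all 17 genes whose libraries are given in every line. Limma's test of the difference was past the threshold for each, as it was for 43 of the 43 genes. Over all tested genes 20.0% were called lower and 25.0% higher in that test. These 17 were picked by the size of their changes in these same data. On the log2 scale the mean change in the MM1 lines minus that in the KMS-12 lines was -0.94 for ORC1, -0.72 for CDC6, -0.62 for CDC45 and -0.71 for MCM10 among the origin and helicase genes. It was -0.80 for DSCC1, -0.74 for POLA2, -0.67 for EXO1, -0.72 for FEN1 and -0.85 for LIG1 among the fork genes. It was -1.12 for RRM2, -0.70 for TYMS and -0.92 for TK1 among the nucleotide supply genes. For the regulators it was -0.80 for E2F2, -0.75 for E2F1 and -1.02 for CCNE2, and it was -0.71 for CLSPN and -0.63 for CHAF1A.

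Between sister lines the change was also called different for some genes. MM1R minus MM1S was 0.25 for CDC45 and 0.31 for RFC5, where 1.14% of all tested genes were called higher and 1.33% lower. That count of 2 higher ran from 0 to 15 when 1 library was left out. KMS-12-BM minus KMS-12-PE was 0.28 for GINS4, 0.30 for DSCC1, 0.31 for CLSPN and -0.29 for E2F1, where 15.9% of all tested genes were called higher and 7.11% lower. IRF4 was lowered by unequal amounts in the 4 lines, and the part of that in these differences was not tested.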

How the results depend on the processing

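All 43 genes stayed lower in MM1R and in MM1S under all 8 alternatives, and lower in MM1 minus KMS-12 under the other 7, a separate fit of these groups being the fit already made, and these results held without any of the 24 libraries. The median in MM1S was -0.88 with voom. The number lower in KMS-12-BM was 8 with median-of-ratios scaling and 11 with voom. The number higher in KMS-12-PE was 2 with a mean of at least 5 TPM, 2 with median-of-ratios scaling, 6 with voom, 2 with the replicate block and 3 in a separate fit. MM1R minus MM1S had 0 genes with a pseudocount of 0.1, 0 with no filter, 11 with voom, 1 without the trend, 0 with the replicate block and 0 in a separate fit. KMS-12-BM minus KMS-12-PE had 2 lower genes with median-of-ratios scaling, 6 with voom and 2 in a separate fit, which gave 5 higher. In CTRL cells MM1R minus MM1S had 14 lower genes with voom. Of the 14935 genes tested by voom 1760 were lower in KMS-12-BM and 3056 higher in KMS-12-PE. In MM1R minus MM1S 365 of them were higher, in KMS-12-BM minus KMS-12-PE 1799 were lower, and in CTRL cells 4819 were lower for MM1R minus MM1S. The cause of these shifts was not tested.

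Without 1 library the median ran from -0.75 to -0.63 in MM1R and from -0.86 to -0.78 in MM1S. The number lower in KMS-12-BM ran from 3 to 8, with 3 without siIRF4 replicate 1, CTRL replicate 1 or CTRL replicate 2 of that line, and the number higher from 1 to 2, with 2 without MM1R siIRF4 replicate 1. The number higher in KMS-12-PE ran from 1 to 3, and was above 1 without MM1R siIRF4 replicate 1 or 3, MM1S siIRF4 replicate 1 or KMS-12-PE CTRL replicate 2. MM1R minus MM1S ran from 0 to 15 genes, and KMS-12-BM minus KMS-12-PE from 3 to 5 higher (5 without KMS-12-PE CTRL replicate 1) and from 0 to 2 lower. The number lower was 0 without KMS-12-BM siIRF4 replicate 1, KMS-12-BM CTRL replicate 1, KMS-12-PE siIRF4 replicate 2, KMS-12-PE siIRF4 replicate 3 or KMS-12-PE CTRL replicate 3. Of 3230 single values of named genes, 3168 kept their direction and side of the threshold, 29 lost the threshold, 33 passed it and 0 reversed. Same-numbered libraries of siIRF4 and CTRL deviated together with correlations of only -0.0878 to 0.0861. In KMS-12-BM this exceeded the highest correlation with another number for replicate 2 (0.082 against 0.0368) and replicate 3 (0.0861 against -0.0261), and elsewhere it lay below. Such weak correlations cannot tell whether same-numbered libraries share a culture or a batch. POLE2, with 90 reads in 1 library, is the gene that depth limits most.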
